A study of Mus musculus with 16 samples.

Results

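The mitochondrial respiratory chain was followed on 16 arrays of glomerular RNA from female mice in anti-GBM nephritis. Its members were taken by symbol: genes named Ndufa, Ndufb, Ndufc, Ndufs, Ndufv, Uqcr, Cox4 to Cox8 or Atp5, with Sdha, Sdhb, Sdhc, Sdhd, Cyc1 and Cycs. This gave 95 of the 30142 genes measured, each by its brightest probeset with 1 symbol, and left out 3 pseudogenes. They divide into 38 genes of complex I, 8 of complex I assembly (the Ndufaf genes, which the Ndufa prefix takes in), 4 of complex II, 9 of complex III, 1 for cytochrome c, 18 of complex IV and 17 of complex V, the ATP synthase. By their symbols 87 of them count as subunits or carriers of the chain, among them Cox7a2l, described below as a factor that joins complexes. The 8 Ndufaf genes encode factors that build complex I and do not remain in it, and among the 87 RefSeq lists Ndufa11b as a transcribed pseudogene and lacks Atp5l2 under that symbol.

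The mice were B6.ERαKO (KO), which lack oestrogen receptor alpha, or C57Bl/6 wild type (WT). Each genotype was sampled untreated and 18 hours, 6 days and 2 weeks after an intraperitoneal injection of 8 ul per g sheep nephrotoxic serum, an antiserum against the glomerular basement membrane. There were 2 mice in each of the 8 groups, 1 array a mouse, and the sources used here give neither age nor knockout allele.

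The respiratory chain sits in the inner mitochondrial membrane. Complexes I and II pass electrons from NADH and succinate to ubiquinone, complex III hands them to cytochrome c, complex IV gives them to oxygen, and the proton gradient so built drives ATP synthesis by complex V. Most subunits are encoded in the nucleus and a few in mitochondrial DNA. In the kidney the proximal tubule, which reabsorbs solutes by active transport, is especially rich in mitochondria, whereas podocytes and other glomerular cells hold fewer. Nuclear factors such as NRF1, the ETS factor GABP, YY1 and the oestrogen-related receptors are known to drive many of these genes.

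To show what some of these genes have at their starts, 3 promoters with several matches to the NRF1 motif are printed, with the promoter of a muscle isoform that held no match for comparison. They were chosen after the matches were counted. Each runs from 250 bases before to 50 after the transcription start (RefSeq, GRCm38.p6), at chr13:74350191-74350490 on the minus strand for Sdha, chr9:108936398-108936697 on the plus strand for Uqcrc1, chr5:115348909-115349208 on the minus strand for Cox6a1 and chr7:30183921-30184220 on the plus strand for Cox7a1. Capitals mark matches to the NRF1 consensus, CCGGAAG (ETS), TCAAGGTCA (ERR) or AAGATGGCG (YY1) on either strand.
Sdha: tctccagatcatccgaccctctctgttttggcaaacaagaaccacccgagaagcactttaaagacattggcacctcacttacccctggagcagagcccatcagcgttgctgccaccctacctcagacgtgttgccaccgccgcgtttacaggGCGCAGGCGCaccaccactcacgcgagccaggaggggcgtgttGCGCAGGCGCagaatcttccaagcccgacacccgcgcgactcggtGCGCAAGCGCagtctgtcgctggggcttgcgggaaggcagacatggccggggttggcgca
Uqcrc1: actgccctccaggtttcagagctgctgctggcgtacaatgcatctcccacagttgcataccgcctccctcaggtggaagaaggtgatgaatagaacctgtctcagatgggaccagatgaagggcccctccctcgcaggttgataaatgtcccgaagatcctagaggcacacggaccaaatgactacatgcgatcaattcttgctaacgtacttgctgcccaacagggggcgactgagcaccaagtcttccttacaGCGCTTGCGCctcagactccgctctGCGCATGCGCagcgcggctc
Cox6a1: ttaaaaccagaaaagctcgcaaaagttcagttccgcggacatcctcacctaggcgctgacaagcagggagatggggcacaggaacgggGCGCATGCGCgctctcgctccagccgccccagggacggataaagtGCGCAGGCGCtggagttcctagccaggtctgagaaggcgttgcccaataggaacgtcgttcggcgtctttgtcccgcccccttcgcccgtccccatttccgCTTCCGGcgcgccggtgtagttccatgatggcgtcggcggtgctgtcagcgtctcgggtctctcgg
Cox7a1: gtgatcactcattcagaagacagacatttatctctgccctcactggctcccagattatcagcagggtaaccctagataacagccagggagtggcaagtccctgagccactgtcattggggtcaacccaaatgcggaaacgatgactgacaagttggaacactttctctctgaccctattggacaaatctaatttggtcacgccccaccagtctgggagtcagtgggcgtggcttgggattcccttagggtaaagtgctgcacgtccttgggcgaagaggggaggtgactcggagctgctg

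Sdha encodes the flavoprotein of complex II, Uqcrc1 a core protein of complex III, Cox6a1 the widely expressed form of complex IV subunit 6A, and Cox7a1 the heart and muscle form of subunit 7A. Promoters were on hand for 75 of the 95 members. The NRF1 motif occurred in 16 of the 75 (21.3%), against 7.17% of protein-coding and 5.19% of all 27025 genes with a promoter. The ETS motif occurred in 19 (25.3%), against 12.9% of protein-coding and 9.93% of all genes. The YY1 motif occurred in 8 (10.7%, against 2.14% and 1.64%) and the ERR motif in 2, Sdhd and Atp5g3 (2.67%, against 0.377% and 0.466%). No 2 matches overlapped, and 36 members held at least 1 of the 4 motifs. These are matches of letters in a window, not sites at which binding was measured.

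Values are the deposited log2 values, and differences are in their units, since an unstated transformation carries 152 genes, 3 of them members, above the log2 of a 16-bit scanner's range. Levels of different genes are not set against each other, except in a correlation given below as a limit. A difference was called at an adjusted p under 0.05 (limma, Benjamini-Hochberg over all 30142 genes), with its SE from the same fit. Counts at an unadjusted p under 0.05 are given for members only, so they are not comparable with the shares of all genes called. Proximal tubule markers were bright on every array, with a mean over 15 genes between 13.02 and 16.27, so the extracts held tubule RNA beside podocyte RNA. In such bulk extracts fewer cells of a type and less RNA per cell cannot be told apart. On 3 arrays the values went against the rest of the genotype or the other replicate. The mean of 12 male-biased genes was 9.23 on KO 18 hours replicate 2, 12.27 on KO 2 weeks replicate 2 and 14.63 to 16.14 on the other KO arrays. In WT mice it was 15.52 on 18 hours replicate 2, against 9.33 to 10.19 on the other arrays. The KO result at 2 weeks without replicate 1 rests on the array with 12.27, and the part of these genes in it was not tested. A list of 5 female-biased genes averaged 14.11 on KO 18 hours replicate 2, against 7.84 to 9.80 on the other KO arrays, and 9.93 on WT 18 hours replicate 2. It was also low on both WT 2 weeks arrays, at 10.25 and 11.23, against 13.64 to 14.32 on the WT arrays of the other times apart from 18 hours replicate 2. The main WT result rests on those 2 arrays, and the part of these genes in it was not tested. On KO 2 weeks replicate 1 the mean of 9 tubule injury genes was 7.13 and on replicate 2 it was 9.51, against 7.43 and 7.20 in untreated KO mice. Some of the counts and medians that use the 3 arrays are also given without 1 or more of them.

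At 2 weeks after serum genes of complexes I to V and of complex I assembly fell in WT glomerular extracts. Of the 95 members 44 were called lower than in untreated WT mice and 0 higher. Over all genes 974 were called lower (3.23%) and 1450 higher (4.81%), which is 8.04% in either direction. The median difference of the members was -1.16 log2 units and that of all genes 0.13, and 90 members lay below 0. Both 2-week arrays were below both untreated arrays in 82 members, which was so for 20.0% of all genes. All these WT calls rest on 2 arrays against 2. None was called without WT untreated replicate 1, without WT untreated replicate 2, or without WT 2 weeks replicate 2, when at most 0.226% of all genes were called lower. Without WT 2 weeks replicate 1 there were 29, with 5.08% of all genes called lower, and without any 1 of the 6 days arrays 29, with 2.05% to 2.11%. The arrays of the other genotype, which enter the shared spread, moved the count too. It was 23 without either KO untreated array (1.5% of all genes lower) and 69 without either KO 2 weeks array (6.89% and 6.90%). With 14 arrays, without both 18 hours replicates 2, 13 were called with the same differences (1.24% of all genes lower). Proximal tubule markers were low on the same arrays, with a mean over 15 genes of 13.02 and 14.38 at 2 weeks in WT mice, against 15.75 and 16.27 untreated, as described with the other lists.

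**Figure D1:**
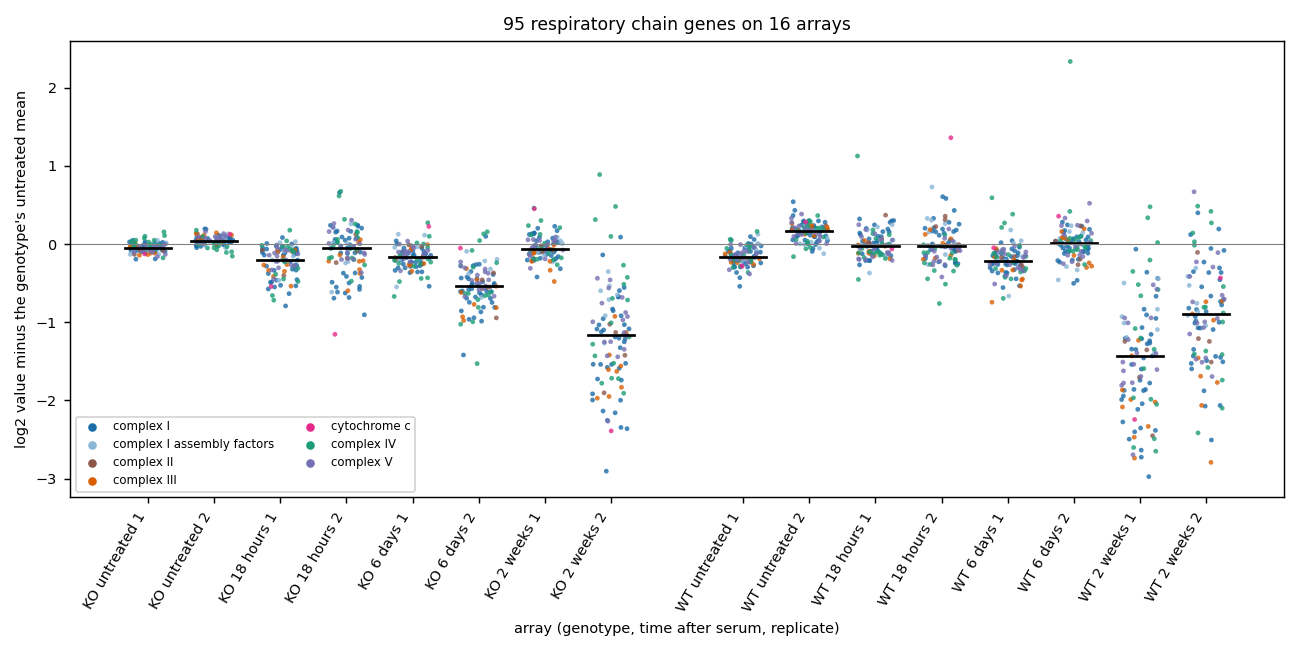
Each point is 1 of the 95 genes on 1 array, as its log2 value minus the mean of the 2 untreated arrays of the same genotype, coloured by complex, and the black bar is the median of the 95 genes on that array. Both WT 2 weeks arrays (medians -1.43 and -0.89) and KO 2 weeks replicate 2 (-1.17) lie low, KO 6 days replicate 2 lies between (-0.54), and KO 2 weeks replicate 1 is at the untreated level (-0.06).

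In complex I 15 of 38 genes were called lower in WT mice at 2 weeks (median of the 38, -1.19). Ndufb9, an accessory subunit of the membrane arm, had 14.38 and 12.58 at 2 weeks in KO mice, against 14.59 and 14.55 untreated. In WT mice it had 11.65 and 12.41 at 2 weeks, against 14.09 and 14.49 untreated. The WT arrays did not overlap between times, and the fall was -2.26 ± 0.49 (SE, adjusted p = 0.0269, limma).

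Ndufa13, an accessory subunit also known as GRIM-19, had 12.20 and 11.29 at 2 weeks in WT mice, against 13.70 and 13.89 untreated (-2.05 ± 0.40). Ndufa1, an X-linked accessory subunit, had 13.10 and 14.09, against 15.41 and 15.78 (adjusted p = 0.0409, limma). Both passed the test, and neither gene's 2-week WT arrays reached its untreated range. Among the 6 measured core subunits, which form the part that takes electrons from NADH towards ubiquinone, Ndufv1, Ndufs3 and Ndufs7 were called. Ndufv1, which binds NADH, had 12.71 and 11.30 at 2 weeks in KO mice, against 12.93 and 13.12 untreated, and 10.84 and 11.13 at 2 weeks in WT mice, against 12.45 and 12.79 untreated. Its WT difference was -1.63 ± 0.37 (adjusted p = 0.0284, limma). Ndufs1 (-1.11 ± 0.32), Ndufs8 (-1.60 ± 0.59) and Ndufv2 (-0.88 ± 0.37) did not pass, at adjusted p = 0.0546, 0.103 and 0.137.

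Ndufb4b and Ndufb4c, copies of Ndufb4 whose probes may read one another's RNA, gave WT differences of -2.20 ± 0.80 and -2.17 ± 0.61 that did not pass (adjusted p = 0.101 and 0.0531, limma). Ndufa4, grouped by its name although its protein is now placed in complex IV, had 11.41 and 13.13 in WT mice at 2 weeks, against 13.88 and 14.38 untreated. The 2 arrays of 2 weeks were 1.72 units apart, and the difference of -1.86 ± 0.64 did not pass (adjusted p = 0.0893, limma). Ndufa4l2, the hypoxia-linked relative of Ndufa4, stayed between 3.83 and 4.25 on all 16 arrays, within the range of the background control probesets.

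The assembly factors of complex I gave a median of -0.80, and 4 of 8 were called lower in WT mice. Ndufaf6 had 10.23 and 9.46 at 2 weeks in KO mice, against 10.24 and 10.50 untreated, and 9.39 and 9.35 at 2 weeks in WT mice, against 10.52 and 10.27 untreated. Its WT fall was -1.03 ± 0.25 (adjusted p = 0.0343, limma). Ndufaf2, Ndufaf7 and Ndufaf8 were the other 3 called. Ndufaf1, with a larger difference of -1.15 ± 0.34, did not pass (adjusted p = 0.0617), and Ndufaf3 had the smallest, -0.38 ± 0.21.

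Complex II, the succinate dehydrogenase that also belongs to the citric acid cycle, had 3 of 4 genes called lower in WT mice. Sdha had 12.11 and 11.30 at 2 weeks in KO mice, against 12.24 and 12.41 untreated, and 11.18 and 10.91 at 2 weeks in WT mice, against 12.24 and 12.60 untreated. The WT groups were separate, with a fall of -1.38 ± 0.25 (adjusted p = 0.0174, limma). Sdhb, the iron-sulphur subunit, fell by 1.83 ± 0.50 in WT mice and Sdhd, a membrane anchor, by 1.47 ± 0.38. Sdhc, the other anchor, had 7.29 and 8.53 at 2 weeks, against 8.41 and 8.87 untreated. Its replicates overlapped the untreated range and the difference of -0.73 ± 0.39 did not pass (adjusted p = 0.22, limma).

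In complex III 6 of 9 genes were called lower in WT mice (median of the 9, -1.86). Uqcrb, a small subunit near the ubiquinone site, had 14.55 and 13.26 at 2 weeks in KO mice, against 14.74 and 15.03 untreated. In WT mice it had 12.79 and 12.02 at 2 weeks, against 14.57 and 15.05 untreated. Its fall of -2.41 ± 0.39 was the largest of the 95 members in that comparison, with the smallest adjusted p (0.0123, limma).

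Cyc1, the haem-carrying cytochrome c1, had 15.39 and 13.67 at 2 weeks in KO mice, against 15.59 and 15.65 untreated, and 13.05 and 13.45 at 2 weeks in WT mice, against 15.39 and 15.64 untreated. Its WT fall was -2.27 ± 0.43 (adjusted p = 0.0193, limma). Uqcrc1 and Uqcrc2, the core proteins, fell by 2.01 ± 0.42 and 1.66 ± 0.40 in WT mice. Uqcrfs1, the Rieske iron-sulphur protein, had the smallest difference of the complex and was still called, -1.06 ± 0.28. Uqcr10, Uqcr11 and Uqcrh did not pass.

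In complex IV 8 of 18 genes were called lower in WT mice, and all 8 are widely expressed forms. Cox6a1 had 16.52 and 15.06 at 2 weeks in KO mice, against 16.68 and 16.49 untreated, and 14.64 and 14.19 at 2 weeks in WT mice, against 16.31 and 16.91 untreated. Its WT arrays were lower at 2 weeks by 2.19 ± 0.43 (adjusted p = 0.02, limma). Cox4i1, the common form of subunit 4, had 12.92 and 12.02 at 2 weeks in KO mice, against 13.01 and 13.05 untreated, and 11.73 and 11.33 in WT mice, against 12.88 and 13.26 untreated (WT -1.54 ± 0.29). Cox5b fell by 2.04 ± 0.36, Cox5a by 2.01 ± 0.50 and Cox6b1 by 2.11 ± 0.52 in WT mice. Cox7a2l, a factor that joins complexes into supercomplexes, fell by 1.28 ± 0.28, and Cox6c and Cox7c by 0.74 ± 0.17 and 0.66 ± 0.17. Cox7a2 (-1.74 ± 0.53) and Cox8a (-1.07 ± 0.41), the common forms of their subunits, did not pass, at adjusted p = 0.0668 and 0.113.

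No tissue-restricted or alternative isoform was called in WT mice. Cox4i2, the lung and hypoxia form, lay between 6.22 and 6.55 on all 16 arrays. Cox6a2, a heart and muscle form, ranged from 5.29 to 6.22. With Cox7b2, Cox8b, Cox8c and Ndufa4l2 they make up the 6 members whose mean was no higher than the brightest of 23 background control probesets (6.43), so their differences say little about RNA. Cox6b2, known from testis, had 7.39 and 7.36 in WT mice at 2 weeks, against 7.17 and 7.58 untreated. Cox7a1, the muscle form whose promoter is printed above, was brighter than background. It had 10.96 and 8.88 at 2 weeks in KO mice, against 10.76 and 10.55 untreated, and 8.89 and 9.53 at 2 weeks in WT mice, against 10.57 and 11.30 untreated. Both its WT arrays of 2 weeks were below both untreated ones, but the difference of -1.73 ± 0.61 did not pass (adjusted p = 0.0946, limma).

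**Figure D2:**
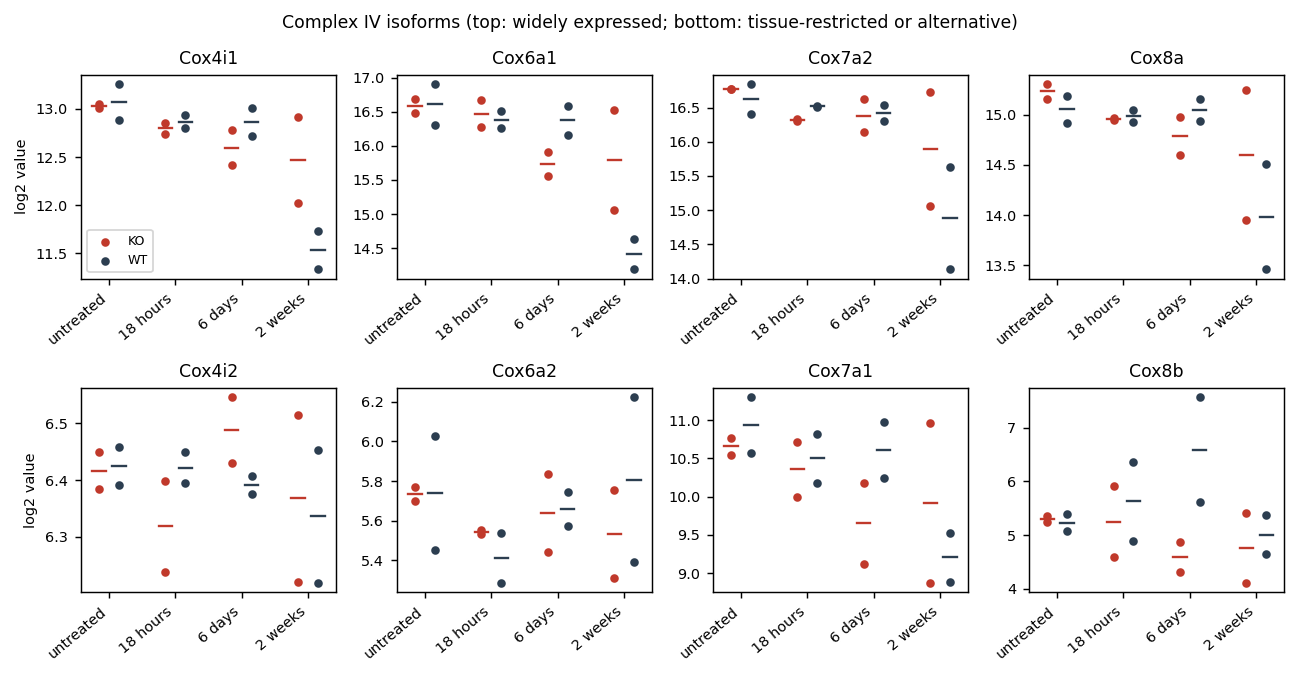
Log2 values of 8 complex IV genes at each time after serum, with 1 point a mouse and a bar for the mean of 2 mice, KO left and WT right. The axes differ between panels. Cox4i1, Cox6a1, Cox7a2 and Cox8a lie below their untreated values on both WT arrays and on KO replicate 2 at 2 weeks, though in WT mice Cox7a2 (adjusted p = 0.0668) and Cox8a (adjusted p = 0.113) did not pass the limma test, Cox4i2 stays within 6.22 and 6.55, and Cox8b is scattered, with 7.57 on WT 6 days replicate 2.

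In complex V 8 of 17 genes were called lower in WT mice (median -1.18). Atp5a1, the alpha subunit of the catalytic head, had 14.07 and 12.95 at 2 weeks in KO mice, against 14.14 and 14.27 untreated, and 12.57 and 12.42 at 2 weeks in WT mice, against 13.83 and 14.39 untreated. Its WT fall was -1.62 ± 0.32 (adjusted p = 0.0205, limma), and that of Atp5b, the beta subunit, was -1.01 ± 0.25. Atp5h, subunit d of the peripheral stalk, had 11.26 and 10.65 at 2 weeks in KO mice, against 11.30 and 11.37 untreated, and 10.54 and 10.04 in WT mice, against 11.51 and 11.59 untreated (WT -1.26 ± 0.23). Atp5md, a small membrane subunit, and Atp5e, the epsilon subunit, fell by 1.64 ± 0.36 and 1.57 ± 0.30.

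The 3 genes of the c-ring, Atp5g1, Atp5g2 and Atp5g3, whose mature proteins are the same, were all called, with falls of 1.19 ± 0.29, 0.95 ± 0.26 and 1.20 ± 0.24. The probeset of Atp5g2 used here carries chromosome 7 in its identifier while the gene is on chromosome 15. The probeset on the gene's own chromosome gave -0.77 ± 0.32 (adjusted p = 0.138, limma), which does not pass. Atp5mpl had 12.18 and 13.73 at 2 weeks in WT mice, against 14.49 and 15.26 untreated, and its difference of -1.92 ± 0.65 did not pass. Atp5l, subunit g, had 14.45 and 16.62 at 2 weeks in WT mice, against 15.86 and 16.05 untreated, so its 2 arrays lay on either side of the untreated ones. Its probeset names chromosome 5 and the gene lies on chromosome 9. On the own-chromosome probeset the values were 9.49 and 9.76, against 10.04 and 10.12 (-0.45 ± 0.16, adjusted p = 0.0932, limma).

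**Figure D3:**
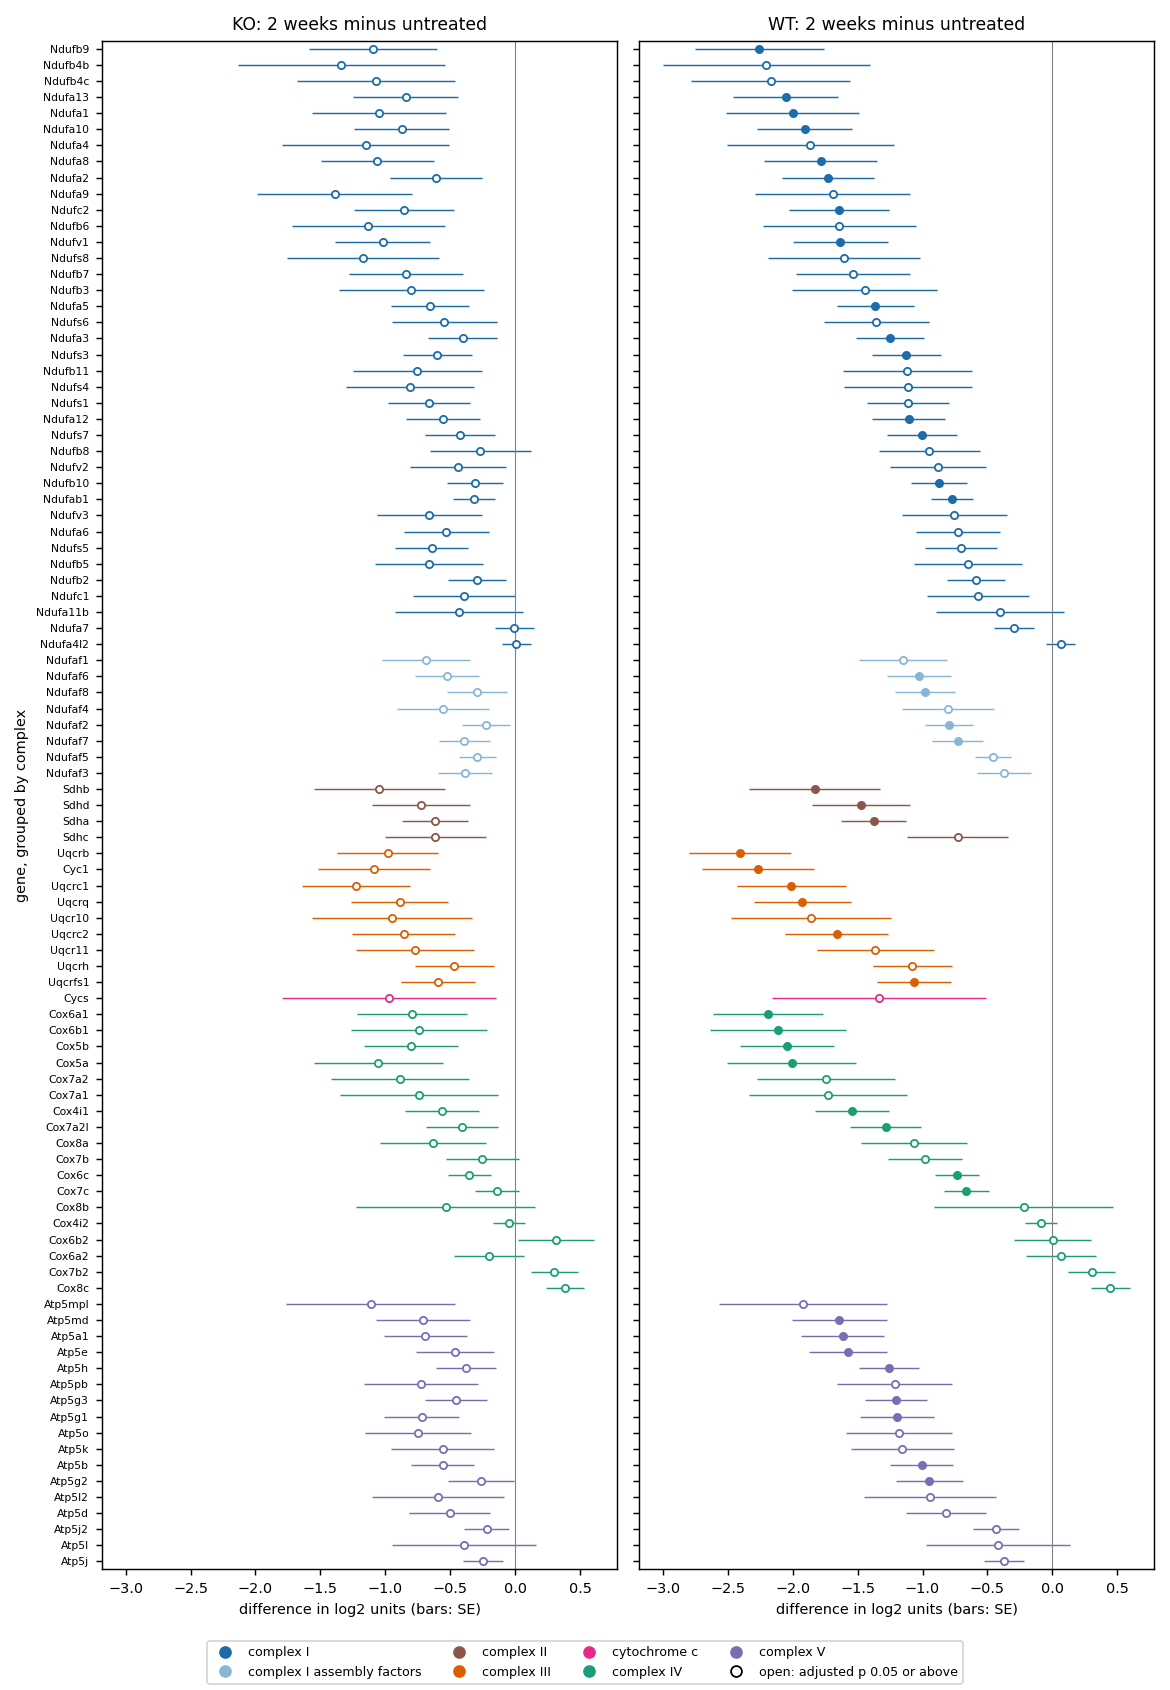
Fitted difference of 2 weeks minus untreated for each of the 95 genes, in log2 units with SE bars, KO in the left panel and WT in the right, ordered by the WT difference within each complex. Filled points passed an adjusted p of 0.05. In WT mice 44 points are filled, all below 0, and in KO mice none is.

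In KO mice 0 of 95 members were called at 2 weeks with all arrays, when 0.109% of all genes were called higher and 0% lower. At an unadjusted p under 0.05 there were 17 members, and the median was -0.61. The 2 KO arrays were far apart: replicate 2 was the lower one in 91 members, and the gap was over 1 unit in 57 members. Over all 30142 genes replicate 2 was the lower in 17523, with a gap over 1 unit in 2834. On replicate 2 alone 90 members were below both untreated KO arrays (38.5% of all genes were), and on replicate 1 there were 46 (31.9% of all genes). Uqcrc1, a core protein of complex III, had 13.90 and 12.41 at 2 weeks in KO mice, against 14.25 and 14.52 untreated, and -1.23 ± 0.42 was the KO difference with the smallest p among the members (adjusted p = 0.437, limma).

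Without KO 2 weeks replicate 1, which leaves 1 KO array at that time and assumes it varies like the other groups, 42 members were called lower and 1 higher. Of all genes 3.06% were lower and 2.25% higher in that fit. The median over the members was -1.17. Cyc1 (-1.95 ± 0.27), Ndufb9 (-1.99 ± 0.39), Uqcrc1 (-1.97 ± 0.33) and Cox5a (-1.91 ± 0.42) were among the lower ones. Cox6b2 was the 1 higher (0.89 ± 0.20), with 7.83 on KO replicate 2 against 6.99 and 6.89 untreated. Across the 95 members the KO difference from this fit and the WT difference had a Pearson r of 0.831 and a Spearman rho of 0.828. Over the 89 members above the background controls these were 0.798 and 0.809. Members with higher mean values also had more negative WT differences (Pearson r of -0.774 over the 95 and -0.684 over the 89). The part of this in the first correlation was not tested. These are descriptions across genes of 1 KO array and 2 WT arrays, and genes measured on the same arrays are not independent.

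**Figure D4:**
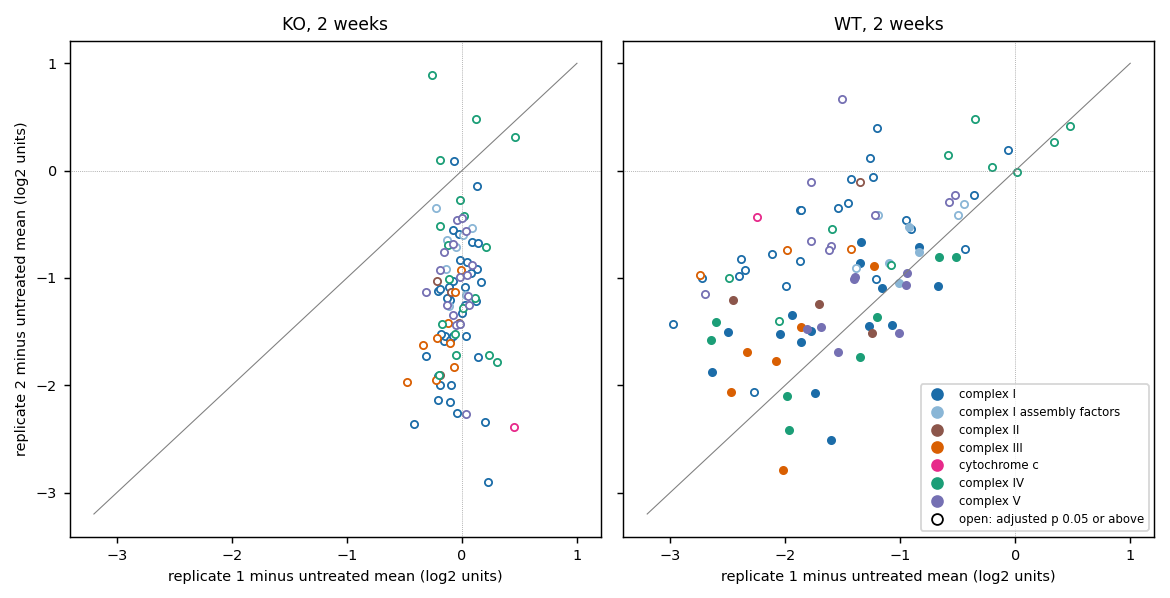
Each point is 1 of the 95 genes, with its deviation from the untreated mean of the genotype on 2 weeks replicate 1 (x) and replicate 2 (y), in log2 units, KO left and WT right. The grey line marks equal deviations, and filled points passed an adjusted p of 0.05 in that genotype. The KO points form a column near 0 on replicate 1, while most WT points are low on both arrays. In 82 of the 95 genes both WT arrays lay below both untreated ones, and Atp5l lay above them on replicate 2.

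The 2 WT arrays of 2 weeks also differed from each other. Replicate 1 was the lower in 73 members and replicate 2 in 22, and over all genes replicate 1 was in 19292 and replicate 2 in 10849. Of the 44 called members 26 were lower on replicate 1 and 18 on replicate 2, among these Uqcrb, Ndufa13, Cox6a1, Cox4i1, Cox5b, Sdha and Atp5a1. Of the 51 not called 47 were lower on replicate 1. The untreated WT arrays were unequal too, with replicate 1 the lower in 86 members, and in 16311 of all genes, against 13706 for replicate 2.

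With both genotypes averaged, 49 members were called lower at 2 weeks and 1 higher, against 4.24% lower and 5.10% higher (9.34% in all) over all genes. The median was -0.86. Of the 44 WT genes 42 (95.5%) were among the 49, of which they were 85.7%. The WT difference is part of the average, so this overlap was built in and is not a separate result. Uqcrb was called at -1.69 ± 0.28, Cyc1 at -1.68 ± 0.31 and Ndufb9 at -1.68 ± 0.35. The 1 called higher was Cox8c, a testis form of subunit 8, with 5.62 and 5.48 in KO and 5.73 and 5.67 in WT mice at 2 weeks, against 5.32 and 5.01 in KO and 5.11 and 5.39 in WT mice untreated (0.42 ± 0.10, adjusted p = 0.0353, limma). Its values lay within the range of the background controls. Without KO 2 weeks replicate 1 the averaged comparison gave 83 lower and 2 higher, when 10.0% of all genes were lower and 10.5% higher. Without KO 2 weeks replicate 2 it gave 38 lower and 1 higher, against 2.66% and 6.43% of all genes. There were 15 called lower without WT untreated replicate 1 (0.932% of all genes), 1 without KO untreated replicate 1 (0.249%), and 0 without WT untreated replicate 2 (0.109%) or KO untreated replicate 2 (0.0398%).

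At 6 days no member was called in KO mice (2 at an unadjusted p under 0.05, with 0.0133% of all genes called), in WT mice (1 member at that p, 0% of all genes called) or with both averaged (2 members, 0.687% of all genes called higher and 0.202% lower). In KO mice 90 of 95 differences lay below 0, with a median of -0.36, and in WT mice 76, with a median of -0.11. Both KO 6 days arrays were below both untreated KO arrays in 72 members, when 21.8% of all genes were, and both WT arrays were in 19, when 17.0% of all genes were. The lowest adjusted p in the average was that of Ndufaf6, with 9.82 and 9.69 in KO and 9.73 and 9.94 in WT mice at 6 days, against 10.24 and 10.50 in KO and 10.52 and 10.27 in WT mice untreated. All 4 arrays of 6 days were below all 4 untreated arrays, by 0.59 ± 0.18 in the average (adjusted p = 0.157, limma). It was called without either KO 2 weeks array, with array weights, with the groups compared alone and with 13 arrays. The largest KO differences were those of Cox7a1, with 10.18 and 9.13 at 6 days, against 10.76 and 10.55 untreated, and of Ndufb9, with 14.03 and 13.15, against 14.59 and 14.55 (-0.98 ± 0.49). Neither passed.

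At 18 hours no member was called in KO mice, in WT mice or in the average, 0% of all genes were called in each, and no member reached an unadjusted p of 0.05. Both KO arrays were below both untreated KO arrays in 43 members (16.4% of all genes), and both WT arrays in 13 (17.5% of all genes). The largest KO differences, those of Cycs (-0.85 ± 0.82) and Ndufa9 (-0.85 ± 0.60), did not pass (adjusted p = 1 for both, limma). Ndufa9, a complex I accessory subunit, had 12.65 and 12.53 at 18 hours in KO mice, against 13.38 and 13.50 untreated, so its arrays did not overlap. Without both 18 hours replicates 2 no member was called either (0% of all genes), and the median was -0.20 in KO and -0.02 in WT mice, against -0.12 and -0.03 with all arrays. On replicate 1 alone 71 members were below both untreated arrays in KO mice (28.6% of all genes) and 19 in WT mice (34.8% of all genes).

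Between KO and WT mice no member was called by limma, averaged over the 4 times (0 called, 1 at an unadjusted p under 0.05, 0% of all genes called), untreated (0 called and 0 at that p, 0%), at 18 hours (0 and 1, 0%), at 6 days (0 and 2, 0.00664%) or at 2 weeks (0 and 33, with 0.182% of all genes called and 0.0365% called higher in KO mice). The shares of all genes here are at the adjusted p, so the counts at the unadjusted p have no share beside them. The median of KO minus WT was 0.07 untreated, -0.07 at 18 hours, -0.17 at 6 days and 0.61 at 2 weeks. Without both 18 hours replicates 2 it was -0.13 at 18 hours, and without KO 2 weeks replicate 1 it was 0.11 at 2 weeks, with 0 called in each. With the tubule minus podocyte marker mean as a covariate 0 were again called. The medians were then -0.13 untreated, -0.06 at 18 hours, -0.40 at 6 days and 0.05 at 2 weeks. The sign thus turned in untreated mice, and the median was larger in size at 6 days and smaller at 2 weeks. That covariate moves with the groups and holds genes that fell with the members, so the part of tubule content was not tested. The difference of the 2-week responses (KO minus WT), which is the test of whether the genotypes responded differently, was called in 0 members (11 at an unadjusted p under 0.05, 0% of all genes called). Its median was 0.57. For Uqcrb it was 1.42 ± 0.55, for Atp5e 1.11 ± 0.43 and for Atp5h 0.88 ± 0.33, each at an adjusted p of 0.639 (limma). These values change with the KO array left out. Without KO 2 weeks replicate 1 the median of the difference of responses was 0.04 and 0 members were called. Without KO 2 weeks replicate 2 there were 9 called higher (1.12% of all genes), and in KO minus WT at 2 weeks 58 were called higher and 1 lower, when 9.60% and 8.09% of all genes were.

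Cycs, cytochrome c itself, had the largest KO minus WT difference in the average and in untreated mice. In KO mice it had 15.32 and 15.57 untreated, 14.90 and 14.29 at 18 hours, 15.67 and 15.39 at 6 days and 15.90 and 13.06 at 2 weeks. In WT mice it had 14.04 and 14.60 untreated, 14.26 and 15.68 at 18 hours, 14.27 and 14.68 at 6 days and 12.08 and 13.89 at 2 weeks. The KO arrays were above the WT arrays untreated and at 6 days, and on both 18 hours replicates 2, the arrays whose male-biased genes went against their labels, the order was turned. The average difference was 0.83 ± 0.41 (adjusted p = 0.464, limma) and 1.08 ± 0.47 without those 2 arrays (adjusted p = 0.342), so it did not pass either way.

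The probeset used for Cycs names chromosome 19 while the gene is on chromosome 6. The probeset of chromosome 6 had 11.59 and 11.61 in untreated KO mice, against 10.35 and 10.86 in untreated WT mice, and an average difference of 0.67 ± 0.28 (adjusted p = 0.389, limma). The WT difference of Cycs at 2 weeks was -1.34 ± 0.82 and not called. Of the 95 members Ndufb4b had the widest gap between the 2 KO arrays of 2 weeks (15.14 and 12.01), followed by Cycs. Cox8b, the muscle form of subunit 8, had 4.86 and 4.31 in KO mice at 6 days, against 5.61 and 7.57 in WT mice. The difference did not pass (adjusted p = 0.919, limma), 1 WT array stood above the rest, and the gene's mean lay within the range of the background controls.

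Some genes of other mitochondrial lists, chosen with the results known, were also called lower in WT mice at 2 weeks, when 3.23% of all genes were. Of 18 citric acid cycle genes 11 were called lower and 0 higher, with a median of -1.16, led by Suclg1 (-1.78 ± 0.36), a succinyl-CoA ligase subunit, and with Idh3b (-1.37 ± 0.23) and Mdh2 (-1.27 ± 0.34). Citrate synthase, Cs, did not pass (-0.59 ± 0.24). Of 12 carriers, channels and uncouplers 6 were called lower and 0 higher, among them the ADP/ATP carrier Slc25a5 (-1.53 ± 0.35) and the channel Vdac1 (-0.97 ± 0.24). Slc25a3, the phosphate carrier, did not pass (-0.37 ± 0.20). Of 31 assembly factors outside the rule 6 were called lower and 0 higher, with Ecsit (complex I) at -1.69 ± 0.34, Tmem70 (complex V) at -1.46 ± 0.30 and Surf1 (complex IV) at -0.82 ± 0.17. Of 19 import and cristae genes 5 were called lower and 0 higher, with Immt at -0.70 ± 0.17 and Timm23 at -1.06 ± 0.29.

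Among 20 nuclear regulators of mitochondrial genes 7 were called lower and 0 higher. They were the deacetylase Sirt3 (-1.59 ± 0.29), the nuclear receptor Esrrb (-1.09 ± 0.19), the coactivator Ppargc1b (-0.97 ± 0.24), and Polg2, Twnk, Tfam and Polrmt, which copy or transcribe mitochondrial DNA. Ppargc1a, the coactivator PGC-1 alpha, had a difference of -1.13 ± 0.34 that did not pass (adjusted p = 0.0649, limma). Nrf1 (0.00 ± 0.15), Gabpa (-0.22 ± 0.15) and Yy1 (0.13 ± 0.20), the factors of the NRF1, ETS and YY1 motifs searched above, did not pass. Esrrb is an oestrogen-related receptor, the class named for the ERR motif, and Esrrg of that class did not pass (-0.29 ± 0.14). The ERR motif occurred in 2 of the 75 members with a promoter, and the part of any of these factors in the fall was not tested. Of 22 hypoxia and glycolysis genes 4 were called lower (Pgk1, Bnip3, Pgam1 and Pfkm) and 2 higher (Hk2 at 0.60 ± 0.11 and the lactate carrier Slc16a3 at 0.49 ± 0.12). Of the 13 subunits encoded in mitochondrial DNA none was measured under its own name. An older name led to Gm10925, which RefSeq lists as a pseudogene on chromosome 1 and which stayed between 19.81 and 19.93 on all arrays, so the mitochondrial genome's part of the chain is not described.

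At 2 weeks tubule markers were low on the arrays on which the respiratory chain was low. At 6 days the mean of the proximal tubule markers was 15.63 and 15.30 in WT mice, and that over the 95 members 11.25 and 11.48. The replicates thus ranked differently in WT mice. In KO mice at 6 days they ranked alike, with 15.75 and 15.14 for the tubule markers and 11.37 and 10.99 for the members. The mean of 15 proximal tubule markers was 15.68 and 14.03 at 2 weeks in KO mice, against 15.88 and 16.14 untreated, and 13.02 and 14.38 at 2 weeks in WT mice, against 15.75 and 16.27 untreated. The same arrays were low as in the mean over the 95 members, which was 11.48 and 10.35 at 2 weeks in KO mice, against 11.49 and 11.58 untreated, and 9.99 and 10.55 at 2 weeks in WT mice, against 11.31 and 11.61 untreated. In WT mice 8 of the 15 tubule markers were called lower and 0 higher (median -2.21). None of 12 podocyte markers was called (median 0.54) and none of 10 mesangium and smooth muscle markers (median 0.67). Of 11 endothelial markers 1 was called lower (median 0.76), and of 14 distal nephron markers 2 were (median -0.90). The mesangial mean was 9.001 and 9.23 at 2 weeks in WT mice, against 8.48 and 8.21 untreated, and the endothelial mean 9.87 and 10.58, against 9.75 and 9.39. The distal nephron mean was 10.95 and 9.88 at 2 weeks in WT mice, against 11.22 and 11.13 untreated. In KO mice at 2 weeks the mesangial mean was 7.56 and 8.73, against 7.86 and 8.05 untreated, the endothelial mean 8.52 and 10.17, against 9.06 and 9.42, and the distal nephron mean 10.81 and 10.51, against 11.10 and 11.04. Their part in the result was not tested. The tubule injury genes averaged 7.13 and 9.51 at 2 weeks in KO mice, against 7.43 and 7.20 untreated, and 10.04 and 9.26 at 2 weeks in WT mice, against 7.22 and 7.15 untreated. At 6 days their mean was already 8.40 and 9.54 in KO mice and 7.74 and 8.59 in WT mice. Of 15 macrophage and monocyte markers 8 were called higher in WT mice. With the tubule minus podocyte marker mean as a covariate, 0 members were called at 2 weeks in WT mice and the median was -0.25, but the covariate moves with the groups and holds genes that fell with the members. Tubule content and disease time cannot be told apart in these groups.

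**Figure D5:**
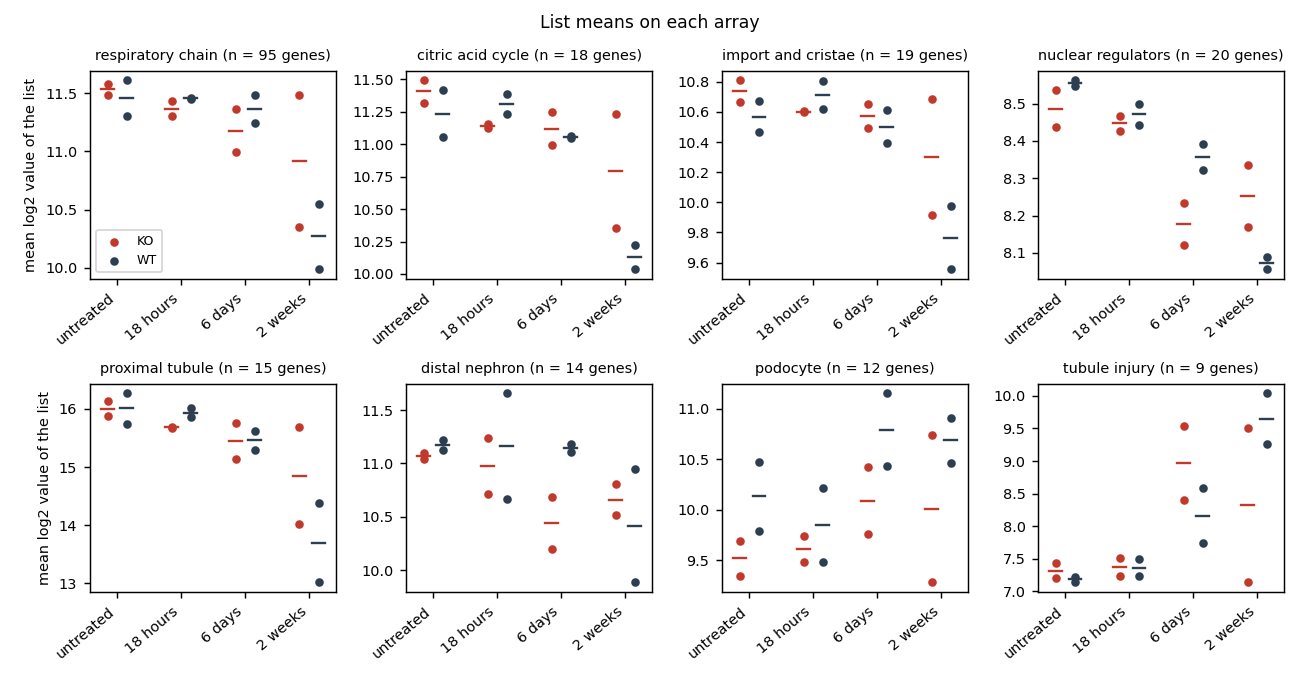
Mean log2 value of each gene list on each array, by time after serum, with 1 point a mouse and a bar for the mean of 2 mice, KO left and WT right. The axes differ between panels. The respiratory chain, citric acid cycle, import and proximal tubule lists are low on both WT arrays and on 1 KO array at 2 weeks. The tubule injury list is high on the same 3 arrays (10.04, 9.26 and 9.51) and also on KO 6 days replicate 2 (9.54).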

How the data were processed

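RNA of glomerular extracts (10 ng) was amplified with the Affymetrix WT Pico kit, 1 array a mouse, per the labels' protocols. The authors' deposited table holds log2 values for 72688 probesets. The submitters' processing notes name Expression Console and Transcriptome Analysis Console (Affymetrix). Their versions, the summarisation and the transformation were not given in the sources used here. Array medians ran from 5.57 to 5.9, the number of arrays limits precision, and whether replicates share a cage or batch is not given.

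No further normalization was applied. Probesets with 1 symbol (30604) were reduced to the brightest for each of 30142 genes, with no filter on brightness. Each gene was fitted with a mean for each of 8 groups over 16 arrays in limma 3.58.1 (R 4.3.3, 8 residual degrees of freedom, variance trend), with Benjamini-Hochberg adjustment over all genes. The fit was tested on simulated data with independent noise for each gene. Such data hold no shift shared by the genes of an array, so that test cannot speak to such shifts. The members, lists and tests were chosen with earlier results of these data known.

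Genes named are the called members (up to 10 each way, or the 3 smallest p), the extremes of each complex by difference, level or spread, complex II, cytochromes and isoforms. Others were named after their values were seen, as was the choice of promoters. Alternatives were dim genes left out, mean of probesets, quantile normalization, median centring, other variance moderation, array weights, only the groups compared, a replicate block, a tubule covariate and each array left out. Leaving out 2, 3 or 4 doubtful arrays and own-chromosome probesets were added after seeing the data.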

Additional observations from a re-analysis of the deposited data

How the results depend on the processing

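The fall of the members at 2 weeks kept its sign in the median of the 95 under every alternative run, while the number called moved. In WT mice the 44 called became 29 with quantile normalization, 6 with array weights, 11 with the groups compared alone, 0 with the tubule covariate, 13 with 14 or 12 arrays and 0 to 69 with each array left out (69 without either KO 2 weeks array). With both genotypes averaged the 50 called became 78 with median centring, 21 with array weights, 0 with the tubule covariate or the groups compared alone, 21 with 14 or 12 arrays, 82 with 13 arrays and 0 to 85 with each array left out. In KO mice the 0 called at 2 weeks became 23 with 13 arrays and 0 to 43 with each array left out. Leaving out each array gave 0 to 59 members in KO minus WT at 2 weeks, 0 to 9 in the difference of responses at 2 weeks, 0 to 7 in KO minus WT averaged over the times and 0 to 1 at 6 days averaged, where array weights, the groups compared alone and 13 arrays also gave 1. Fewer arrays leave fewer degrees of freedom and other spreads. Otherwise the cause was not tested. The remaining comparisons stayed at 0 called throughout. No difference of a named member changed sign once called.

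The replicate numbers were not used as pairs. Same-numbered KO and WT arrays deviated together with correlations of 0.043 untreated, -0.679 at 18 hours, 0.14 at 6 days and -0.195 at 2 weeks. With 2 mice a group these values cannot show whether mice were paired, and the 18 hours value uses the arrays whose male-biased genes went against their labels. With the replicate block 35 members were called in WT mice at 2 weeks, 40 with both genotypes averaged and 0 in the other comparisons.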
